A study of Mus musculus with 12 samples.

Results

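Expression of 7 genes for matrix, membrane and lysosomal proteins was followed in CD8 T cells with and without the transcription factor STAT3. The genes, Ecm1, Igfbp4, Tgm2, Anxa3, Emp1, Cpm and Cd68, were chosen from 22180 genes with a named probe set because their values were seen to fall strongly in Tc17 cells that lacked STAT3. That contrast is therefore described for them without a test. RNA was measured on 12 Affymetrix arrays, 3 in each of 4 groups: Tc17 cells of STAT3-/- genotype, Tc17 cells of WT genotype, Tc1 cells of STAT3-/- genotype and Tc1 cells of WT genotype. The STAT3-/- cells carried a floxed Stat3 allele deleted by Cre from the Cd4 promoter, which acts during thymic development, so that CD8 as well as CD4 T cells lose the gene. In all groups sorted naive CD8 T cells from spleen were activated by antibodies to CD3 (1 µg/ml) and CD28 (3 µg/ml), with WT and STAT3-/- cells mixed in equal numbers in the same culture. Tc1 cultures received IL-12, and Tc17 cultures IL-6 and TGF-beta, for 3 days. A further day with IL-2 brought the culture to 4 days, after which sorting on allelic markers separated the genotypes. The sources used here do not give the age of the mice.

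STAT3 is activated by cytokine receptors, among them those for IL-6, IL-21 and IL-23, and enters the nucleus to switch on target genes. In Tc17 cells, as in their CD4 counterparts, it drives the IL-17 program together with TGF-beta signals. The 7 genes stand outside the cytokine genes of that program and encode proteins that lie in the matrix, at the plasma membrane or in lysosomes. In the following, levels are log2 values, and a difference of 1 on that scale is a 2-fold change in array signal.

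Each group had biological arrays 1 and 2 and a technical array numbered 2, which was averaged with biological array 2, giving n = 2 samples per group. Array medians were 3.95 to 4.10. The technical array of Tc17 WT stood apart from the rest, with a median correlation of 0.971 to the other arrays, against at least 0.984 for every other array. Stat3 itself was 7.59 to 7.93 in Tc17 STAT3-/-, against 10.38 to 10.72 in Tc17 WT. In Tc1 it was 6.99 to 7.67 without STAT3, against 9.77 to 10.13 in WT. CD8 T cell markers averaged 9.98 to 10.17 on every array. Because the samples are bulk RNA, fewer cells that express a gene and less RNA per cell cannot be told apart.

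Promoter sequence was available in RefSeq (GRCm38.p6) for 5 of the 7 genes, Ecm1, Igfbp4, Emp1, Cpm and Cd68. It came as 6 windows, of which the 250 bases before an annotated start were read. The windows of Ecm1, Emp1 and Igfbp4 lie inside the span of their gene, so the start used is not the outermost end of the gene. Those of Cpm and Cd68 lie next to the span. The bases before the start are shown for Ecm1, Emp1 and Cd68 because these share a short sequence that the rule for choosing the genes did not use. Capitals mark TGANTCA, the form bound by AP-1 factors, and TTCNNNGAA, the general form bound by STAT factors; each motif reads the same on both strands.
Ecm1, chr3:95739570-95739819, minus strand: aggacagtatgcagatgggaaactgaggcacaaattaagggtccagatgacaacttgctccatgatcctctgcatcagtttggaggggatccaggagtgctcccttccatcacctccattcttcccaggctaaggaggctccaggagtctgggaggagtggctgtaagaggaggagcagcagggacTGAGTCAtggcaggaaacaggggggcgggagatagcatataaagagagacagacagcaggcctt
Emp1, chr6:135362681-135362930, plus strand: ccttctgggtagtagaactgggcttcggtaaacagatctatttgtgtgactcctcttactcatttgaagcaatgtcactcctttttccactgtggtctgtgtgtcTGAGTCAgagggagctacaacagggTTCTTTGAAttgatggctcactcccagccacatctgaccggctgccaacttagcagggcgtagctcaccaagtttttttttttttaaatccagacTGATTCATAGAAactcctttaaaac
Cd68, chr11:69666171-69666420, minus strand: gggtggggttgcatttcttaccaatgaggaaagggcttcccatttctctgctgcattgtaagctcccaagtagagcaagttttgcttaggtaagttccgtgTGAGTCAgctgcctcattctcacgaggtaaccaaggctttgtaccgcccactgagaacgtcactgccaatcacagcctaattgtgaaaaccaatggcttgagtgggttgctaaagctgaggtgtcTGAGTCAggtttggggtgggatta
TGANTCA was present in 3 of the 6 windows, 1 each for Ecm1, Emp1 and Cd68, against 6.75% of 32851 RefSeq windows of the same length. It began 64 bases before the start in Ecm1, and in Cd68 it occurred 149 and 24 bases before the start. TTCNNNGAA was present in the Emp1 window only among the 6, against 7.02% of all windows. In Emp1 the second TGANTCA, 25 bases before the start, overlaps a TTCNNNGAA. The second Emp1 window and those of Igfbp4 and Cpm held neither motif. Both motifs were chosen after these sequences had been seen, and a match is a description of the letters, not a measured binding site.

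Ecm1 and Igfbp4, whose products leave the cell, were high in Tc17 WT alone. Ecm1 encodes extracellular matrix protein 1, a secreted glycoprotein. Its level was 5.11, 5.27 and 5.23 on the Tc17 STAT3-/- arrays, against 8.23, 8.14 and 8.89 on the Tc17 WT arrays, with the technical array last in each group. In Tc1 it was 4.66, 4.76 and 4.80 on STAT3-/- arrays, against 4.55, 4.93 and 4.80 on WT arrays. Tc17 WT stood alone on every array, Tc17 STAT3-/- lay just above both Tc1 groups with no overlap, and the Tc1 genotypes overlapped. The group means gave a difference of -3.19 in Tc17, a 9.15-fold lower signal in STAT3-/- cells.

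Igfbp4 encodes a secreted protein that binds insulin-like growth factors and limits their access to the IGF1 receptor. It measured 6.21, 6.16 and 6.28 on Tc17 STAT3-/- arrays, against 9.24, 9.18 and 9.70 on Tc17 WT arrays. The Tc1 values were 5.45, 5.68 and 5.32 in STAT3-/- and 5.33, 5.59 and 5.51 in WT. The order of the groups was that of Ecm1, with overlap only between the Tc1 genotypes. The difference in Tc17 was -3.12, an 8.69-fold lower signal without STAT3, and 6.22 ± 0.01 in Tc17 STAT3-/- was still 0.74 above 5.47 ± 0.04 in Tc1 STAT3-/- (SD, n = 2 each).

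Tgm2 encodes tissue transglutaminase, an enzyme that crosslinks proteins inside cells and in the matrix. Its Tc17 values were 6.76, 6.70 and 6.01 in STAT3-/- and 9.97, 9.97 and 8.99 in WT. In Tc1 they were 5.89, 6.21 and 5.53 in STAT3-/-, against 6.49, 6.64 and 5.74 in WT. Tc17 WT was again above all other arrays, and the 3 remaining groups overlapped each other. The technical array was the lowest of its group in all 4 groups. The Tc17 difference of -3.17 was -3.21 and -3.26 between biological arrays of the same number and -2.98 between the technical arrays.

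Anxa3 encodes annexin A3, a calcium-dependent protein of the inner membrane surface best known from neutrophils. It measured 3.62, 3.61 and 3.38 on Tc17 STAT3-/- arrays, against 6.91, 6.33 and 6.42 on Tc17 WT arrays. In Tc1 it was 3.30, 3.02 and 3.07 in STAT3-/-, against 4.01, 3.89 and 3.78 in WT. No pair of groups overlapped, and the order was Tc17 WT, Tc1 WT, Tc17 STAT3-/- and Tc1 STAT3-/-. The Tc17 difference was -3.08. Anxa3 reached the level of 5 set for testing in Tc17 WT alone, which fixes the direction of that difference, and RMA narrows differences at such low levels.

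Emp1 encodes epithelial membrane protein 1, a protein of the PMP22 family that crosses the membrane 4 times. It read 5.58, 5.38 and 5.41 on Tc17 STAT3-/- arrays, against 8.15, 8.07 and 7.77 on Tc17 WT arrays. Both Tc1 groups lay between, at 6.73, 6.66 and 7.24 in STAT3-/- and 6.74, 6.54 and 7.21 in WT. The Tc1 genotypes overlapped and the other groups did not. The Tc17 difference was -2.54, or 5.83-fold, and Tc17 STAT3-/- minus Tc1 STAT3-/- was -1.35. A second Emp1 probe set lay at 1.93 to 2.58 on all arrays, and with the mean of both probe sets the difference was -1.39.

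Cpm encodes carboxypeptidase M, a membrane-anchored enzyme that trims arginine or lysine from the end of extracellular peptides. Its level was 4.44, 4.46 and 4.40 on Tc17 STAT3-/- arrays, against 7.17, 7.11 and 6.34 on Tc17 WT arrays. In Tc1 it was 5.52, 5.29 and 5.35 in STAT3-/-, against 6.31, 6.43 and 6.40 in WT. Both STAT3-/- groups lay below both WT groups, and the WT groups overlapped through the Tc17 WT technical array. The Tc17 difference was -2.51, with -2.73 and -2.65 between biological arrays of the same number and -1.94 between technical arrays.

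Cd68 encodes a glycoprotein of the LAMP family in late endosomes and lysosomes, widely used as a macrophage marker. It was 6.74, 6.85 and 6.89 on Tc17 STAT3-/- arrays, against 7.99, 7.95 and 7.77 on Tc17 WT arrays. Tc1 values were 7.82, 7.61 and 7.87 in STAT3-/- and 7.94, 7.77 and 7.60 in WT. Tc17 STAT3-/- was below every other array, and the other 3 groups overlapped. The difference in Tc17 was -1.12, a 2.18-fold lower signal. The 20 other myeloid markers on a list used here all stayed under a group mean of 5, with array means over the list of 3.57 to 3.61 in Tc17 STAT3-/- and 3.63 to 3.77 in Tc17 WT.

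**Figure D1:**
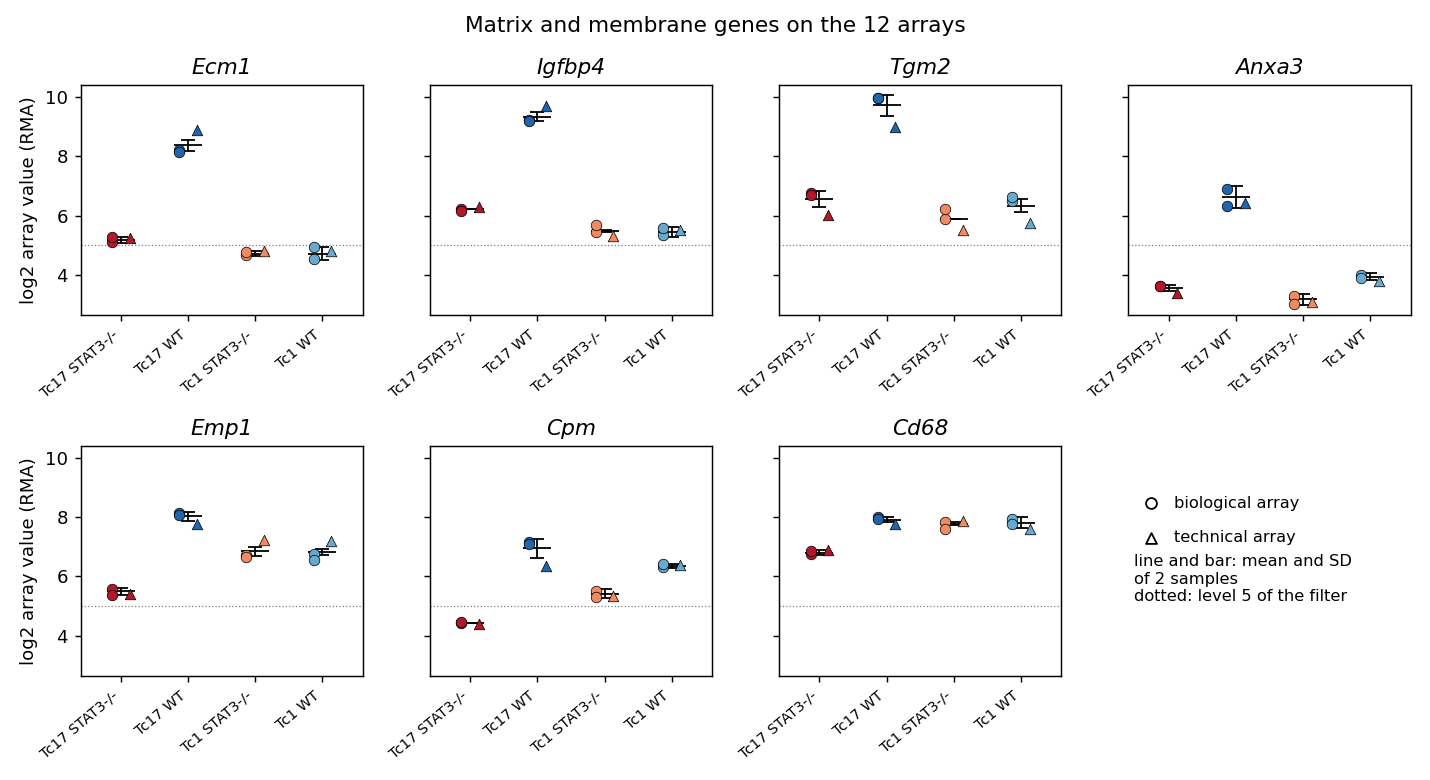
Log2 array value of each of the 7 genes (vertical axis) in the 4 groups (horizontal axis), with circles for biological and triangles for technical arrays and the mean and SD of 2 samples in black. Tc17 STAT3-/- lies below Tc17 WT for all 7 genes, and for Emp1, Cpm and Cd68 it also lies below both Tc1 groups.

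In Tc17 cells all 7 genes had every STAT3-/- array below every WT array, as chosen, where 10.7% of 9862 tested genes did. Ecm1, Tgm2, Igfbp4 and Anxa3 ranked 7, 8, 9 and 10 among all falls, Emp1 and Cpm 20 and 22, and Cd68 134. The choice set no numeric threshold, and unchosen genes ranked above Ecm1 and between the members, many of them between Cpm and Cd68. The median difference of the 7 was -3.08, against 0.11 over all tested genes.

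Against Tc1 cells the 7 genes fell into patterns that the genotype difference in Tc17 does not show. These comparisons share the Tc17 arrays used to choose the genes and are given without a test. Tc17 WT minus Tc1 WT was 3.90 for Igfbp4, 3.67 for Ecm1, 3.38 for Tgm2 and 2.71 for Anxa3. It was 1.23 for Emp1, 0.59 for Cpm and 0.11 for Cd68. Arrays of Tc17 WT were all above those of Tc1 WT for 5 of the 7 genes, against 10.8% of tested genes, and overlapped for Cpm and Cd68.

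Without STAT3 the order of the cell types depended on the gene. Tc17 STAT3-/- minus Tc1 STAT3-/- was 0.74 for Igfbp4, 0.68 for Tgm2, 0.46 for Ecm1 and 0.39 for Anxa3. It was -0.98 for Cpm, -0.98 for Cd68 and -1.35 for Emp1. Arrays of Tc17 STAT3-/- lay all above those of Tc1 STAT3-/- for Ecm1, Igfbp4 and Anxa3 (8.69% of tested genes) and all below for Emp1, Cpm and Cd68 (7.68% of tested genes). Set against Tc1 WT, the Tc17 STAT3-/- arrays were all lower for Anxa3, Emp1, Cpm and Cd68 (10% of tested genes) and all higher for Ecm1 and Igfbp4 (12.2% of tested genes). For Cpm the difference was -1.93, with Tc17 STAT3-/- at 4.43, under the level of 5, where RMA narrows differences.

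**Figure D2:**
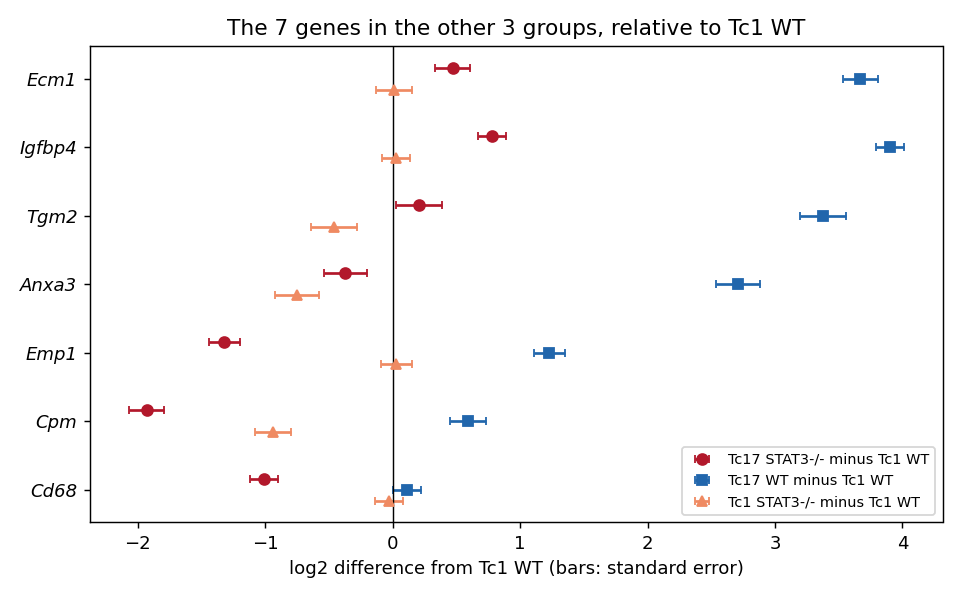
Log2 difference of Tc17 STAT3-/-, Tc17 WT and Tc1 STAT3-/- from Tc1 WT (horizontal axis) for each of the 7 genes (rows), with bars of 1 standard error from limma. Ecm1, Igfbp4 and Tgm2 in Tc17 STAT3-/- lie 0.21 to 0.78 above Tc1 WT, whereas Emp1, Cpm and Cd68 lie 1.01 to 1.93 below it.

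The Tc1 samples took no part in choosing the genes and allow a test of whether the genotypes also differed there. None of the 7 genes was called by limma at an adjusted p under 0.05. Of all tested genes 0.0608% were, 0.0406% as lower and 0.0203% as higher, so a count of 0 of 7 says little by itself. At an unadjusted p under 0.05 there were 3 of 7, Cpm, Anxa3 and Tgm2, against 3.75% of tested genes, all lower in STAT3-/-. Every STAT3-/- array was below every WT array for Cpm and Anxa3, against 3.19% of tested genes.

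Cpm averaged 5.42 ± 0.14 in Tc1 STAT3-/- and 6.36 ± 0.07 in Tc1 WT (SD, n = 2 each), a limma difference of -0.94 ± 0.14 (SE, adjusted p = 0.103) with a 95% interval from -1.27 to -0.62. Its difference was -0.84 to -1.05 over 20 alternative settings, and its adjusted p ran from 0.00364 to 0.578, under the threshold in 8 of them. Those were all 3 other treatments of the technical arrays, the Tc17 WT technical array alone left out (adjusted p = 0.00857), either Tc17 WT sample left out (0.0326 and 0.0314), the replicate number as a block, and the median of tested genes subtracted. Anxa3 averaged 3.17 ± 0.18 in Tc1 STAT3-/- and 3.93 ± 0.12 in Tc1 WT, differing by -0.75 ± 0.17 (limma adjusted p = 0.48), at levels under 5 in both groups. Its adjusted p was 0.0259 with the technical arrays averaged with biological replicate 1 and over 0.05 in the other 19 settings. Tgm2 differed by -0.46 ± 0.18 (limma adjusted p = 0.998).

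The other 4 genes had small differences in Tc1, with adjusted p = 0.998 each by limma. The 95% intervals ran from -0.30 to 0.32 for Ecm1, from -0.21 to 0.28 for Igfbp4, from -0.25 to 0.31 for Emp1 and from -0.28 to 0.22 for Cd68. Differences of the size seen in Tc17 lie outside these intervals, but those differences chose the genes, so setting them side by side is not a test. Ecm1 was under the level of 5 in both Tc1 groups (4.72 in STAT3-/- and 4.71 in WT), where RMA narrows differences. Igfbp4 lay little above that level (5.47 and 5.44), so a fall like that in Tc17 had little room to show for either gene. Subtracting the Tc1 from the Tc17 genotype difference left -3.21 for Ecm1, -3.15 for Igfbp4, -2.70 for Tgm2, -2.58 for Emp1, -2.33 for Anxa3, -1.57 for Cpm and -1.09 for Cd68, which contain the contrast that chose the genes and were not tested.

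**Figure D3:**
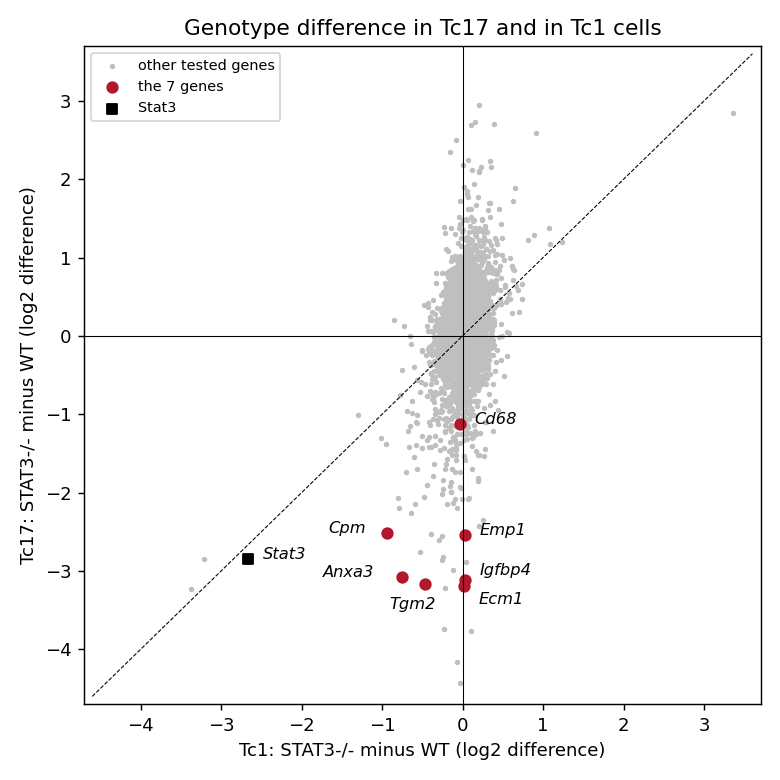
Log2 difference of STAT3-/- minus WT in Tc17 (vertical axis) against the same in Tc1 (horizontal axis) for 9862 tested genes in grey, the 7 genes in red and Stat3 in black; the dashed line marks equal differences. Stat3 lies near that line, Ecm1, Igfbp4, Emp1 and Cd68 lie near 0 on the Tc1 axis, and Cpm, Anxa3 and Tgm2 lie to its left at -0.94, -0.75 and -0.46.

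Over the 8 samples the profiles of the 7 genes were alike to different degrees. Pearson's r was 0.949 to 0.997 among Ecm1, Igfbp4, Tgm2 and Anxa3 and 0.861 to 0.921 among Emp1, Cpm and Cd68. Between these sets it ran from 0.247 for Igfbp4 with Cd68 to 0.770 for Anxa3 with Emp1. The samples share their arrays and fall into 4 groups, so these values describe group patterns.

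Of 451 genes outside the 7 whose group means spanned at least 1 on the log2 scale, the 3 most like each member were found by the same measure. Il24, an IL-10 family cytokine, and Pdpn, which encodes the surface glycoprotein podoplanin, led for Ecm1 (0.996 each) and for Igfbp4 (0.996 and 0.995). Next were Il3, a haematopoietic growth factor (0.994), for Ecm1 and Dusp3, a phosphatase (0.993), for Igfbp4. Tgm2 was followed most closely by Pltp, a phospholipid transfer protein (0.995), Cysltr1, a leukotriene receptor (0.994), and Dusp3 (0.994). For Anxa3 they were Gipr, a receptor for an incretin hormone (0.992), Slc39a14, a zinc transporter (0.989), and Sema4f, a semaphorin (0.988). Satb1, a chromatin organiser of T cells, was among the 3 for Emp1 (0.980) and for Cpm (0.948), with Chd7 (0.980) and Lpp (0.975) for Emp1 and Gadd45g (0.948) and Klrc1 (0.942) for Cpm. Cd68 ran most closely with the chemokine receptor gene Cxcr6 (0.966), then Mctp2 (0.958) and Ifitm2 (0.921). Cxcr6 averaged 5.35 in Tc17 STAT3-/-, against 6.98 in Tc17 WT, and 7.03 in Tc1 STAT3-/-, against 7.24 in Tc1 WT, so that it too was lowest in Tc17 STAT3-/-.

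Relatives of the 7 genes by family or role were tested in Tc17 as well, on lists drawn up with earlier results of this contrast known. Of 93 such genes on 7 lists 87 were measured and 32 tested. Of the 32, 9 (28.1%) were lower in STAT3-/- cells, where 6.83% of all tested genes were, and 6 (18.8%) were higher, where 18.2% were. Of these, Adamtsl4, Mmp14 and Col4a1 reached the filter in Tc17 WT alone, so that a lower level was the only direction open to them. Without such genes 7 of 29 relatives were lower, against 6.1% of the other tested genes. The median of the 32 was -0.19, against 0.11 over all tested genes. The counts moved with the scaling, and so did the share over all tested genes. After subtracting the median of tested genes 15 relatives were lower and 5 higher, against 11.3% and 11% of all tested genes. Quantile normalization gave 16 and 6, against 10.3% and 12.2%, and cyclic loess 16 and 4, against 10.2% and 10.8%. With the median of all probe sets taken off there were 7 each way, against 4.92% and 23%. Leaving out Tc17 STAT3-/- replicate 1 gave 4 lower and 3 higher, against 3.32% and 6.78% of all tested genes. Its replicate 2 left out gave the same counts, against 3.11% and 6.49%.

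The insulin-like growth factor axis, which Igfbp4 modulates, had 2 of 6 tested genes lower and 1 higher. Irs2, the adaptor that carries signals from insulin and IGF1 receptors, averaged 6.13 ± 0.12 in Tc17 STAT3-/- and 7.19 ± 0.09 in Tc17 WT (SD, n = 2 each), and fell by 1.07 ± 0.12 (limma adjusted p = 3.9e-04). Igf1r, the IGF1 receptor, averaged 5.54 ± 0.26 in Tc17 STAT3-/- and 6.59 ± 0.20 in Tc17 WT and fell by 1.04 ± 0.20 (limma adjusted p = 0.00634). Leaving out Tc17 STAT3-/- replicate 2 ended the Igf1r call (adjusted p = 0.0568). Igf2r, the receptor that clears IGF2 and carries lysosomal enzymes, rose to 7.96 in Tc17 STAT3-/-, against 7.33 in Tc17 WT (limma adjusted p = 0.00162). Igfbp2 (-0.07), Igfbp7 (0.20) and Insr (-0.18) were not called. The other Igfbp genes measured and the growth factor genes Igf1 and Igf2 stayed under the filter, as did Pappa, the protease that cleaves the Igfbp4 product, at 4.23 in Tc17 STAT3-/- and 4.19 in Tc17 WT.

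Among transglutaminases Tgm1, better known for crosslinking the skin barrier, was the 1 tested relative of Tgm2 and fell by 0.94 ± 0.12 to 6.37 in Tc17 STAT3-/-, against 7.31 in Tc17 WT (limma adjusted p = 8.2e-04). Of 5 tested annexins besides Anxa3, 2 were lower. Anxa2 differed by -0.42 (limma adjusted p = 0.00951), which leaving out Tc17 STAT3-/- replicate 1 or 2 ended (0.0554 and 0.0855). Anxa5 differed by -0.37 (limma adjusted p = 0.0404) and was called in 9 of 20 alternatives, with adjusted p up to 0.231 and lost in 7 of the 8 settings that left out 1 sample, all but Tc17 WT replicate 2. Anxa4 (0.29), Anxa6 (0.33) and Anxa7 (-0.22) were not called.

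Both tested relatives of Emp1 were called higher, where 18.2% of all tested genes were. Perp, a protein of cell junctions induced by p53, averaged 6.27 ± 0.18 in Tc17 STAT3-/- and 5.39 ± 0.31 in Tc17 WT, a rise of 0.89 ± 0.20 (limma adjusted p = 0.0128). Emp3 averaged 9.92 ± 0.17 in Tc17 STAT3-/- and 9.38 ± 0.12 in Tc17 WT, a rise of 0.54 ± 0.11 (limma adjusted p = 0.0105). The calls of Perp and Emp3 were lost without Tc17 WT replicate 2 (0.0781 and 0.0506), that of Perp without Tc17 STAT3-/- replicate 1 (0.0955) and that of Emp3 without Tc17 STAT3-/- replicate 2 (0.0955). Cpd, a carboxypeptidase of the secretory pathway and the 1 tested relative of Cpm, fell by 0.84 ± 0.16 to 8.97 in Tc17 STAT3-/-, against 9.81 in Tc17 WT (limma adjusted p = 0.00602, and 0.0576 without Tc17 STAT3-/- replicate 1). Its Tc1 levels were 6.08 in STAT3-/- and 5.68 in WT, so that unlike Cpm it was far lower in both Tc1 groups than in either Tc17 group. The LAMP family members Lamp1 (-0.17) and Lamp2 (-0.13) were not called.

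Of 15 tested genes for matrix proteins and matrix remodelling 3 were lower and 3 higher, against 6.83% and 18.2% of all tested genes. Of the 3 lower, Adamtsl4 and Mmp14 reached the filter in Tc17 WT alone, which fixes their direction; without the filter both were still called (limma adjusted p = 0.00523 and 0.036). Adamtsl4, a matrix protein of microfibrils, fell by 0.69 ± 0.10 to 4.51 in Tc17 STAT3-/-, against 5.20 in Tc17 WT (limma adjusted p = 0.00223). Mmp14, a membrane-bound metalloprotease, differed by -0.45 (limma adjusted p = 0.0134) and Srgn, the proteoglycan of secretory granules, by -0.31 (limma adjusted p = 0.0364). The membrane proteases Adam10 (0.63, adjusted p = 0.00161), Adam19 (0.48, adjusted p = 0.0121) and Adam17 (0.43, adjusted p = 0.0282) were higher by limma. Srgn and Adam17 were named after their values were seen. The Mmp14, Srgn, Adam17 and Adam19 calls were each lost without Tc17 STAT3-/- replicate 1 and without its replicate 2, and those of Srgn and Adam17 also without Tc17 WT replicate 2. Those of Srgn were lost without either Tc1 WT sample too, without the filter and with the median of all probe sets subtracted. That of Adam17 was lost with all technical arrays left out (limma adjusted p = 0.0743) or that of Tc17 WT alone (0.102). It was lost after cyclic loess and without the filter as well. That of Adam19 was lost after subtracting the median of tested genes (limma adjusted p = 0.0751), after cyclic loess (0.0812) and with the mean of its probe sets (0.0921). Of the 15 relatives called, 5 (Irs2, Igf2r, Tgm1, Adam10 and Adamtsl4) were called under all 20 alternatives.

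**Figure D4:**
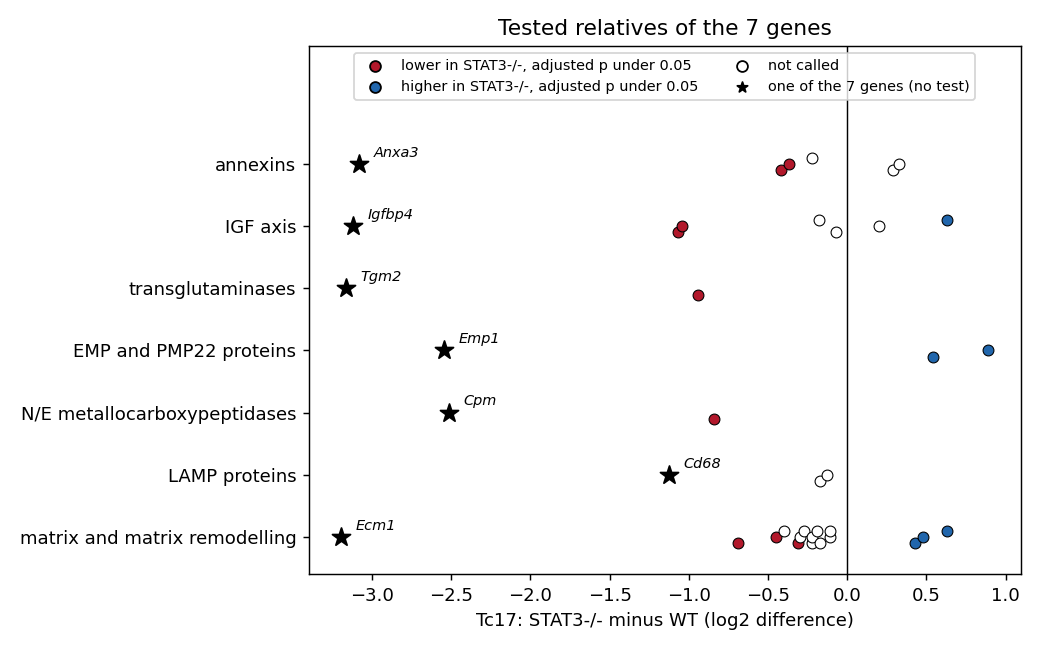
Log2 difference of STAT3-/- minus WT in Tc17 (horizontal axis) for the 32 tested relatives, by list, with red for lower and blue for higher calls, white for uncalled genes and stars for the 7 genes, which carry no test. The called relatives lie between -1.07 and 0.89.

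In Tc1 cells 0 of the 32 relatives were called by limma between the genotypes, where 0.0608% of all tested genes were. At so small a share a count of 0 says little about the relatives. Between Tc17 WT and Tc1 WT 18 of the 32 differed, 11 higher and 7 lower in Tc17, against 7.01% and 18% of all tested genes. Among the 11 were Adamtsl4 (0.85, limma adjusted p = 8.1e-04) and Mmp14 (0.36, limma adjusted p = 0.0334). Both reached the filter in Tc17 WT alone, so that a higher level there was the only direction open to them. Cpd led these at 4.13 higher in Tc17 WT (limma adjusted p = 9.5e-07), and Irs2 was 1.83 higher (limma adjusted p = 1.5e-05). The count was lower without Tc17 WT replicate 2 and without either Tc1 WT sample. The shares of all tested genes in those settings are not given here, so the drop is not read as particular to the relatives.

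The 7 genes lie at 7 places on 6 chromosomes of GRCm38.p6, with Igfbp4 and Cd68 both on chromosome 11. Ecm1 spans chr3:95734147-95739876, Igfbp4 chr11:99040005-99052655 and Tgm2 chr2:158116405-158146392. Anxa3 spans chr5:96793385-96845968, Emp1 chr6:135362550-135383173, Cpm chr10:117629500-117687352 and Cd68 chr11:69664213-69666170. Of the 14 measured genes nearest to them on either side 7 were tested, and 2 were lower in Tc17 STAT3-/- cells, where 6.83% of all tested genes were. Adamtsl4, which reached the filter in Tc17 WT alone, lies 46220 bases from Ecm1. Eif4a1, a translation initiation helicase, lies 766 bases from Cd68 and averaged 12.08 in Tc17 STAT3-/- and 12.56 in Tc17 WT, a limma difference of -0.47 (adjusted p = 0.00964). Averaging its probe sets gave -0.18 (adjusted p = 0.146), and leaving out Tc17 STAT3-/- replicate 1 ended the call as well (0.0887). Tars2, only 98 bases from Ecm1, differed by 0.10, and Mdm2, 1523 bases from Cpm, by 0.13, neither called. Top2a next to Igfbp4 (0.23), Bmp2k next to Anxa3 (-0.10) and Cpsf6 next to Cpm (0.17) were not called either.

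Markers of other cells were looked at in the same arrays. The myeloid list had 0 of 20 markers at the filter. Its neutrophil marker Ly6g was at 4.02 ± 0.04 in Tc17 STAT3-/- and 4.91 ± 0.29 in Tc17 WT (SD, n = 2 each), a difference in the same direction as in the 7 genes. The neutrophil genes S100a8, S100a9 and Mpo were at 2.03, 3.25 and 3.53 in Tc17 STAT3-/-, against 2.24, 3.51 and 3.65 in Tc17 WT. Of 12 stromal and endothelial markers Acta2 alone reached it, differing by -0.05 in Tc17, and the array means of that list were 3.79 to 3.85 in Tc17 STAT3-/- and 3.90 to 3.97 in Tc17 WT. Of B cell markers 2 reached the filter, Ighm with a Tc17 difference of 1.77 and Cd79b with 0.78, both called and opposite in direction to the 7 genes. The B cell markers Cd79a, Ms4a1 and Pax5 stayed under the filter, with Tc17 differences of -0.08, -0.13 and -0.01. Both CD4 T cell markers reached the filter, Cd4 with a Tc17 difference of -0.24 and Zbtb7b with 0.08, and neither was called. The part of other cells in the results was not tested.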

How the data were processed

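Expression was measured in 12 samples on Affymetrix arrays. Per the submitters' processing notes, the authors used RMA and Partek; the sources used here give no versions or roles. The deposited values are log2 values per probe set, with the log2 scale read from the values. RMA narrows differences near background.

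The platform annotation names 1 gene for 23521 of 41345 probe sets, several for 1814 and none for 16010; Entrez identifiers of 23328 matched RefSeq (GRCm38.p6). The probe set with the highest mean stood for a gene, giving 22180 genes. The 9862 genes with a group mean of at least 5 were tested, among them all 7 members. Technical arrays, numbered 2, were averaged with biological array 2. They differed more from biological array 2 (SD over tested genes 0.209 to 0.352) than the biological arrays from each other (0.144 to 0.192). The labels do not tie replicates to animals or cultures, so p-values measure only how these samples vary, which may be technical. WT and STAT3-/- cells were mixed in the same culture, but the labels do not say which arrays share a culture. The main fit therefore left this pairing out. The number of arrays limits the precision.

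A model with 1 mean per group was fitted to 8 samples by limma 3.58.1 under R 4.3.3 (lmFit and eBayes; 4 residual and 4.87 prior degrees of freedom), two-sided, with Benjamini-Hochberg adjustment over all tested genes and a threshold of 0.05. The procedure was tested on simulated data. Members, lists and tests were chosen with earlier results of these data known. Named genes were the 7 members, up to 4 called relatives per list, the nearest measured gene on each side of a member and the 3 genes most correlated with it; exceptions are stated. Alternatives covered technical arrays, scaling, the filter, probe sets, the replicate block, eBayes options and leaving out each sample; 2 were added after seeing the data. Figures used matplotlib 3.10.9.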

Additional observations from a re-analysis of the deposited data

Results flagged for a closer look

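By limma's interaction term over 9862 genes, the genotype difference itself differed between Tc17 and Tc1 for 5 named relatives of the 7 genes. Relatives were named because they were called in Tc17, a contrast that the interaction contains, so these p-values favour a call. The share of all tested genes called by this term is not given here. Irs2 changed by -1.07 in Tc17 and 0.04 in Tc1, an interaction of -1.11 (adjusted p = 0.0057, and 0.00287 to 0.034 over the 20 alternatives). Cpd changed by -0.84 in Tc17 and 0.40 in Tc1, an interaction of -1.24 (adjusted p = 0.0142), lost without Tc17 STAT3-/- replicate 1 or Tc1 STAT3-/- replicate 1 (adjusted p up to 0.0674). Adamtsl4 changed by -0.69 in Tc17 and 0.12 in Tc1, an interaction of -0.81 (adjusted p = 0.0152). It reached the filter in Tc17 WT alone, which fixes the direction of its Tc17 difference, and the call was lost without either Tc17 STAT3-/- sample, Tc1 STAT3-/- replicate 2 or Tc1 WT replicate 1 (up to 0.0814).

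The remaining pair was less stable. Tgm1 changed by -0.94 in Tc17 and -0.27 in Tc1, an interaction of -0.67 (adjusted p = 0.0472, and 0.0172 to 0.179 over the alternatives, called in 10 of 20). Igf2r changed by 0.63 in Tc17 and 0.11 in Tc1, an interaction of 0.52 (adjusted p = 0.0436, and 0.0245 to 0.18, called in 8 of 20). Each of these calls was lost without any sample of either Tc1 group, without Tc17 STAT3-/- replicate 1 and without Tc17 WT replicate 2, that of Igf2r also without Tc17 STAT3-/- replicate 2 and after 3 of 4 scalings (the median of tested genes, quantile and cyclic loess), and that of Tgm1 also without Tc17 WT replicate 1.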

How the results depend on the processing

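The median Tc17 difference of the 7 genes was -3.24 after quantile normalization and -3.11 to -2.82 without 1 sample. The count of members called in Tc1 was 1 (Cpm) with the technical arrays left out, kept as samples of their own or that of Tc17 WT alone left out, 1 after subtracting the median of tested genes, 2 (Cpm and Anxa3) with the technical arrays averaged with biological replicate 1, and 0 to 1 without 1 sample; the cause was not tested. Small uncalled Tc1 differences changed sign. That of Ecm1 was -0.03, -0.06 and -0.02 with the technical arrays left out, averaged with replicate 1 or kept apart. Without 1 sample, Ecm1 ran from -0.14 to 0.17, Igfbp4 from -0.08 to 0.15, Emp1 from -0.08 to 0.14 and Cd68 from -0.16 to 0.10. Relatives lower in Tc17 numbered 15 after subtracting the median of tested genes, 16 after quantile normalization, 16 after cyclic loess (11.3%, 10.3% and 10.2% of all tested genes) and 4 to 9 without 1 sample (3.11% to 6.6%). Relatives higher in Tc17 numbered 3 to 6 without 1 sample (6.49% to 25.8%), and those called between Tc17 WT and Tc1 WT 9 to 20. The median Tc17 difference of all tested genes was 0.114 as deposited and -0.006, 0.016 and -0.001 after these scalings. With the replicate number as a block 1 member, Cpm, was called in Tc1 (limma adjusted p = 0.039), where 15 of all 9862 tested genes were. The relatives lower in Tc17 then numbered 10 (8.27% of all tested genes). Differences between samples 1 and 2 correlated at 0.098 to 0.455 between groups, the highest value being that of the Tc1 genotypes with each other. The labels do not say that the numbers pair samples.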

Other observations

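Timp1, a secreted inhibitor of matrix metalloproteases on the matrix list, was too dim to be tested and was picked out after its values were seen. It was 3.20, 3.19 and 3.28 on Tc17 STAT3-/- arrays, against 4.68, 4.51 and 5.37 on Tc17 WT arrays, with the technical array last in each group. In Tc1 it was 3.22, 3.39 and 3.36 on STAT3-/- arrays, against 3.43, 3.37 and 3.50 on WT arrays. Tc17 WT was above all other arrays, and the other 3 groups lay between 3.19 and 3.50.

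Bmp2k, a kinase gene 151704 bases from Anxa3, averaged 8.75 in Tc1 STAT3-/- and 9.38 in Tc1 WT, a limma difference of -0.63 (adjusted p = 0.103). The Tc1 difference of Anxa3 was -0.75 (limma adjusted p = 0.48). In Tc17 the differences were -0.10 for Bmp2k and -3.08 for Anxa3. Bmp2k was picked out from the 14 neighbours after its values were seen, and a link to Anxa3 was not tested.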
